A study of Drosophila melanogaster with 16 samples.

Results

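CNMa, which encodes the peptide hormone CNMamide, and CNMaR, which encodes its receptor, were followed library by library through fly head RNA on a control diet and a sugar diet. They are 2 of the 17489 genes in each count table. CNMa was chosen by its input counts, which were higher after 7 days of sugar diet, so its values in every comparison that uses input libraries are given as a description with no test, while CNMaR was chosen only as its receptor. RNA came from frozen, sieved heads of adult male Drosophila melanogaster, 300 heads per replicate, and all groups carried Gr5a-GAL4 driving UAS-Rpl3-3XFLAG, a tagged ribosomal protein, in cells that use the promoter of Gr5a, a receptor for sweet taste. The study pulled down the tagged ribosomes with their bound mRNA (TRAP), which gave the Gr5a fraction, and kept total RNA of the lysate as input.

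The diets held 30% sucrose (sugar diet, SD) or 5% sucrose (control diet, CD), and flies of the 7-day and 14-day groups were put on them at day 5. Gr5a fraction libraries were made after 7 days on sugar (SD7, n = 2), after 3 days on sugar (SD3, n = 2) and after 7 days on control food (CD7, n = 3). Input RNA was sequenced for SD7 (2 libraries) and CD7 (3 libraries). Flies of the 7-day groups were collected at day 12. SD3 flies are listed with a start on sugar at day 5 and no day of collection, while the study describes them as matched in age to the control diet group. Whether SD3 and CD7 flies differed in age is thus not settled. Another 2 Gr5a groups, collected at day 19, spent 14 days on diet: SD>CD flies went to the control diet after 7 days of sugar diet (2 libraries), and CD>CD flies had control diet throughout (2 libraries).

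CNMamide is a short amidated peptide that is cut from a longer precursor. In adult flies it is known from enterocytes of the midgut, which release it when essential amino acids are short, and from a group of clock neurons in the brain. CNMaR is a G protein-coupled receptor found in brain neurons, and in these settings the pair is known for steering feeding toward amino acids and for linking feeding state to sleep. Heads hold the brain, the eyes, the taste organs and some fat body, but no midgut.

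CNMa (FBgn0035282, protein-coding) lies at 3L:1850915-1855591 on the minus strand of the BDGP6 (dm6) assembly, with 1900 bases of exon in all. Its 3 annotated transcripts encode precursors of 193 or 189 amino acids and were counted together. CNMaR (FBgn0053696, protein-coding) lies at 3L:9644109-9659433 on the plus strand, with 2704 bases of exon and 1 transcript that encodes 480 amino acids. The whole of CNMaR sits inside the span of fry, a large gene (FBgn0016081, 3L:9631834-9679103) on the opposite strand, with 0 bases of exon in common. Counts were taken on the strand of each gene. Over CNMaR exons the opposite strand held 7.55% to 34.0% of the counts of the 15 libraries with both strands, and over CNMa exons it held 0% to 3.79%.

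**Figure D1:**
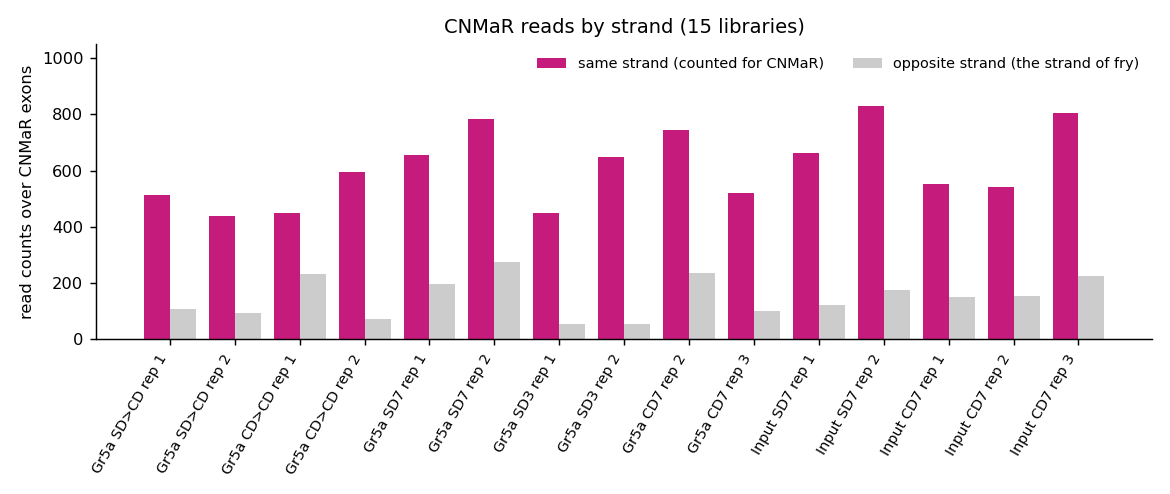
Read counts over CNMaR exons in 15 libraries, on the strand of CNMaR (pink bars) and on the opposite strand, the strand of the gene fry, as grey bars. Opposite-strand counts ran from 53 to 275 and were fewer than same-strand counts in every library, with the highest share, 34.0%, in Gr5a CD>CD replicate 1.

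Some libraries stood apart. Library totals over genes ranged from 22901154 to 55290069 counts, and the 4 libraries of the 14-day groups were the shallowest, at 22901154 to 29633926. The titles of both SD>CD libraries read CD>CD, numbered 3 and 4, while their condition label reads sugar followed by control, and each SD>CD value here rests on that label. The libraries of CD>CD did not match each other. Lsp2, a larval serum protein gene expressed in fat body, stood at 684 CPM in CD>CD replicate 1 and at 1.62 CPM in replicate 2, and LManIII, a mannosidase gene, at 17.8 and 0.74 CPM. CPM is the usual depth-scaled count, with library totals scaled by TMM factors. At these genes replicate 2 was near the Gr5a SD7 libraries (Lsp2 4.54 and 0.79 CPM) and replicate 1 nearer the CD7 libraries (Lsp2 123 to 363 CPM). The summed midgut enterocyte markers went the other way. Their sum was 2813 CPM in replicate 2, inside the CD7 range of 2292 to 4457 CPM. In replicate 1 it was 1306 CPM, between the SD7 libraries (1530 and 694 CPM). The control diet label of CD>CD replicate 2 is thus in doubt, though not by all markers. This doubt bears on every CD>CD value and on the shared fit, so CNMa and CNMaR are also given without this library. The pull-down held the cells it was aimed at: Gr5a itself was at 1.98 to 6.43 CPM in the 11 Gr5a libraries, against 0.058 to 0.40 CPM in the 5 input libraries. It also held other head RNA, since the 10 photoreceptor markers summed to 11062 to 29328 CPM in the Gr5a fraction, against 27315 to 40228 CPM in the input.

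CNMa ranged 19.4-fold over the 16 libraries. In the input it stood at 24.9 and 25.8 CPM on SD7 (949 and 1326 counts), against 3.04, 3.77 and 4.50 CPM on CD7 (120, 162 and 254 counts). The groups did not overlap, and the log2 fold change was 2.76, the measure for which the gene was chosen. Of all genes tested, 24.3% had higher values on SD7 with no overlap between the groups, and 0.0705% were called at an edgeR adjusted p under 0.1.

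In the Gr5a fraction CNMa was at 10.8 and 14.7 CPM on SD7 (560 and 683 counts), against 1.77, 1.33 and 1.87 CPM on CD7 (68, 68 and 69 counts). Both SD7 libraries lay above all CD7 libraries, as for 10.1% of the genes tested. The mean was 12.7 ± 2.76 CPM on SD7 (SD, n = 2) and 1.66 ± 0.29 CPM on CD7 (n = 3). These libraries were not used to choose the gene, but they came from the same lysates as the input, and so not from other flies. The log2 fold change was 2.96 (SE 0.69, 95% interval 1.41 to 4.51), a 7.78-fold higher level. Its unadjusted p of 0.00167 ranked 25 among 13758 genes, and the edgeR adjusted p was 0.786, so it was not called. In this comparison 0.00% of genes were called by edgeR and 5.61% had an unadjusted p under 0.05.

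The shared edgeR fit included CD>CD, whose libraries were 11.5-fold apart at CNMa. Without CD>CD replicate 2, a setting added after the data were seen, the log2 fold change of SD7 against CD7 was again 2.96 and the edgeR adjusted p was 0.00252, with 6 genes called. The DESeq2 Wald test on all 11 Gr5a libraries gave 2.95 with an adjusted p of 0.00418 and called 57 genes. A fit of SD7 and CD7 alone, which holds no CD>CD library, gave 2.94 and did not call CNMa (edgeR adjusted p 0.14). Nor was CNMa called with unstranded counts or with any CD7 library left out of the shared fit. The call therefore depends on the fit, while the size of the difference moved little, from 2.78 to 3.14 when each library of the groups was left out.

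At 3 days of sugar diet CNMa was between these levels. SD3 libraries held 6.24 and 5.52 CPM (193 and 207 counts), above all 3 CD7 libraries, as did 16.1% of genes. The log2 fold change of SD3 against CD7 was 1.76 (SE 0.69), which was not called (edgeR adjusted p 0.316), and 0.0436% of genes were. It passed in the fit without CD>CD replicate 2 (edgeR adjusted p 0.0365) and in a fit of SD3 and CD7 alone (edgeR adjusted p 0.0538). The fit of SD3 and CD7 alone called 157 genes. CNMa was not called by the DESeq2 Wald test (adjusted p 0.116) or with the replicate number added to the fit (edgeR adjusted p 0.685). It was also not called with any CD7 library left out. Both SD7 libraries lay above both SD3 libraries, as for 30.3% of genes. Here the log2 fold change was 1.20 (95% interval -0.47 to 2.87), with an edgeR adjusted p of 0.406 in the shared fit and 0.122 without CD>CD replicate 2. In the shared fit edgeR called 0.00% of genes and 17.2% had an unadjusted p under 0.05, while the DESeq2 Wald test called 776 genes. A higher level at 7 than at 3 days was thus not established by the test in either fit.

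**Figure D2:**
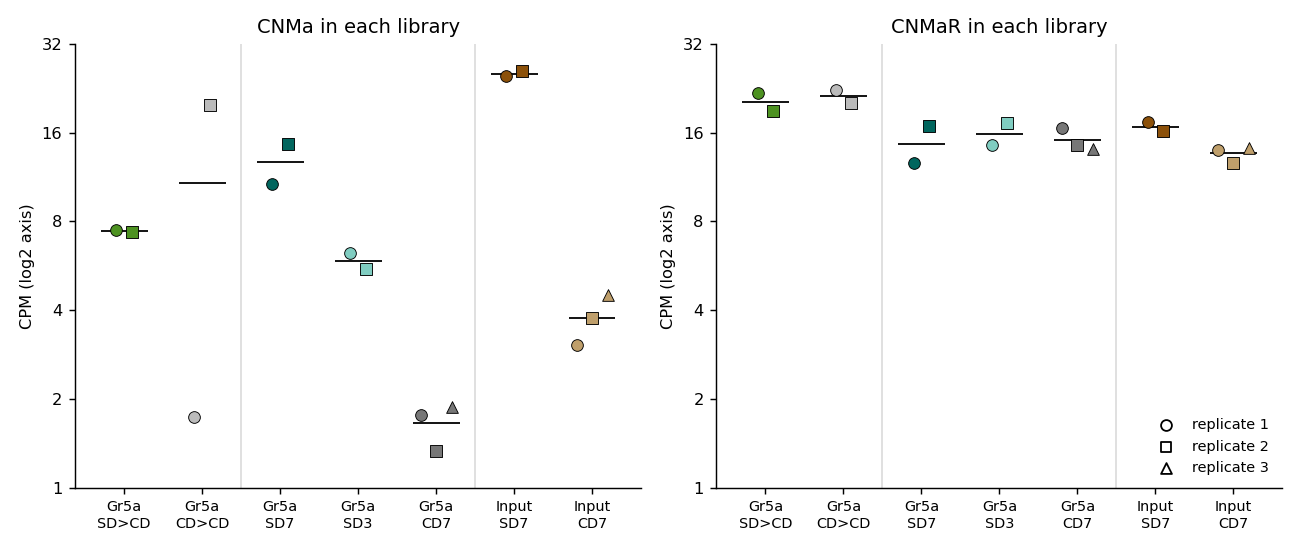
CNMa (left) and CNMaR (right) in each of the 16 libraries, in CPM on a log2 axis, with the group mean as a bar and the replicate number as the marker shape. CNMa runs from 1.33 to 25.8 CPM and is split in Gr5a CD>CD, while CNMaR stays between 12.6 and 22.4 CPM and is highest in the 14-day groups.

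After the return to the control diet CNMa was at 7.50 and 7.34 CPM in SD>CD (176 and 170 counts). CD>CD libraries held 1.74 and 19.9 CPM (35 and 588 counts), 1 below and 1 above both SD>CD libraries. The log2 fold change of SD>CD against CD>CD was -0.53 (95% interval -2.20 to 1.13) and was not called (edgeR adjusted p 0.872), where 13.3% of genes were. It turned on which CD>CD library was kept. Without CD>CD replicate 2 it was 2.19 (edgeR adjusted p 0.00538), and without replicate 1 it was -1.43 (edgeR adjusted p 0.00638). Each of these sets SD>CD against a lone library that is assumed to vary like the other groups, so the data do not give a direction for CNMa in this comparison.

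Set against CD7 instead, SD>CD was higher by 2.16 on the log2 scale (edgeR adjusted p 0.0360), with diet history and 7 days of age changing together. This comparison called 5982 of 13758 genes, so a call here sets CNMa little apart. Against SD7, the end of the sugar diet, SD>CD was lower in both libraries, as for 40.9% of genes, by a log2 fold change of -0.80 (SE 0.75) that was not called (edgeR adjusted p 0.465), while 36.7% of genes were. That difference passed without CD>CD replicate 2 (edgeR adjusted p 0.0336) and in a fit of both groups alone (edgeR adjusted p 0.0342). The fit of both groups alone called 5573 genes, so a call there sets CNMa little apart. CNMa was not called in SD>CD against SD7 by the DESeq2 Wald test (adjusted p 0.409), which called 5307 genes. Nor was it called with unstranded counts (edgeR adjusted p 0.525) or no low-count filter (edgeR adjusted p 0.453). This call thus depended on the fit. The older control flies, CD>CD, differed from CD7 by 2.69 (SE 0.69, edgeR adjusted p 0.0495), in a comparison that called 14.1% of genes. This was 1 library: without CD>CD replicate 2 the value was -0.03 (edgeR adjusted p 0.961). It was also not called in a fit of CD>CD and CD7 alone (edgeR adjusted p 0.146). At CD>CD replicate 1, the CNMa level of 1.74 CPM was inside the CD7 range.

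By group mean, CNMa was ordered as input SD7, Gr5a SD7, CD>CD, SD>CD, SD3, input CD7 and Gr5a CD7. Leaving aside CD>CD, whose range overlapped that of every group but input SD7, no neighbours in this order overlapped. This order is a description, since part of it chose the gene.

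**Figure D3:**
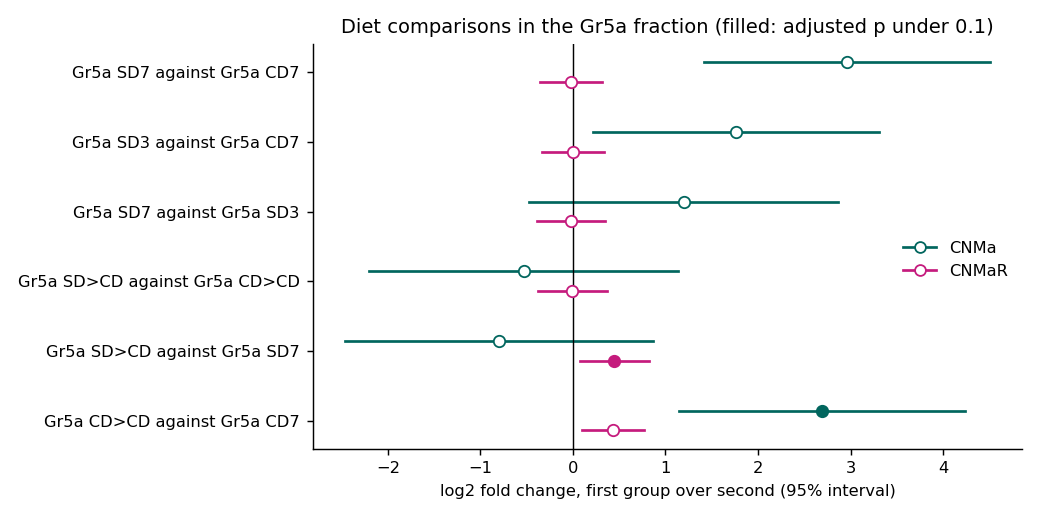
Log2 fold changes of CNMa (green) and CNMaR (pink) with 95% intervals in 6 comparisons within the Gr5a fraction, from the shared edgeR fit of 11 libraries, with filled points where the adjusted p was under 0.1. Only CNMa in CD>CD against CD7 (2.69) and CNMaR in SD>CD against SD7 (0.45) are filled, and neither held under all settings.

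CNMa was lower in the pull-down than in the input at both diets. Gr5a SD7 libraries had 10.8 and 14.7 CPM, against 24.9 and 25.8 CPM in input SD7, and Gr5a CD7 libraries had 1.33 to 1.87 CPM, against 3.04 to 4.50 CPM in input CD7. The log2 fold changes, given as a description, were -1.03 on SD7 and -1.19 on CD7, and the diet effects of the fractions differed by 0.16. The libraries did not overlap in either case, as for 22.6% of genes in that direction on SD7 and 27.2% on CD7. Over the 10 photoreceptor markers, genes of cells that the pull-down was not aimed at, the median log2 fold change of Gr5a fraction against input was -1.11 on SD7 and -1.03 on CD7. Over 5 genes of sweet taste cells it was 4.40 and 3.35. Medians of other marker lists were 1.66 and 1.48 for midgut enterocytes, -0.58 and -0.19 for neurons, and -0.28 and -0.69 for fat body. Which cells of the head gave the CNMa reads of the Gr5a fraction was not tested. In bulk RNA, more cells that hold an mRNA and more of it per cell cannot be told apart.

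RNA of midgut enterocyte markers was present in most libraries, and the tissue it came from was not tested. The 32 enterocyte markers, mostly trypsin and Jonah protease genes, summed to 191 and 469 CPM in input SD7, against 823 to 1062 CPM in input CD7. In the Gr5a fraction they summed to 1530 and 694 CPM on SD7 and to 2033 and 1746 CPM on SD3, against 2292 to 4457 CPM on CD7. In SD>CD they were nearly gone, with sums of 18.6 and 33.8 CPM and 12 and 17 of the 32 genes at 0 counts, against 1306 and 2813 CPM in CD>CD. Within CD>CD the higher sum was that of replicate 2, which also had the higher CNMa level. The trypsin gene alphaTry was at 0.13 and 0.39 CPM and Jon99Ci at 0 in these SD>CD libraries, while CNMa stood at 7.50 and 7.34 CPM there.

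Some fat body markers were called lower on sugar. In input SD7 against CD7, 1 of 10 tested was called lower, beside 0.0423% of all genes. There 6 had an unadjusted p under 0.05, beside 18.8% of all genes. In Gr5a SD7 against CD7, 0 of 9 were called, beside 0.00%, and 4 had an unadjusted p under 0.05, beside 5.61%. In SD3 against CD7, 3 of 9 were called lower, beside 0.0436% of all genes. The 11 markers with a row summed to 13422 and 8167 CPM in input SD7, against 13968 to 19528 CPM in input CD7. In the pull-down the sums were 6070 and 4210 CPM on SD7, against 5949 to 8481 CPM on CD7, so the groups overlapped there, and 10295 and 3782 CPM in CD>CD replicates 1 and 2. CD>CD replicate 2 thus combined a high CNMa level with a low fat body sum. Other groups did not follow this pairing. Sums on SD3 were as low, at 3698 and 4380 CPM, with CNMa at 6.24 and 5.52 CPM. In SD>CD they were inside the CD7 range, at 6910 and 8227 CPM, with CNMa at 7.50 and 7.34 CPM. The part of fat body and midgut RNA in the CNMa values was not tested.

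**Figure D4:**
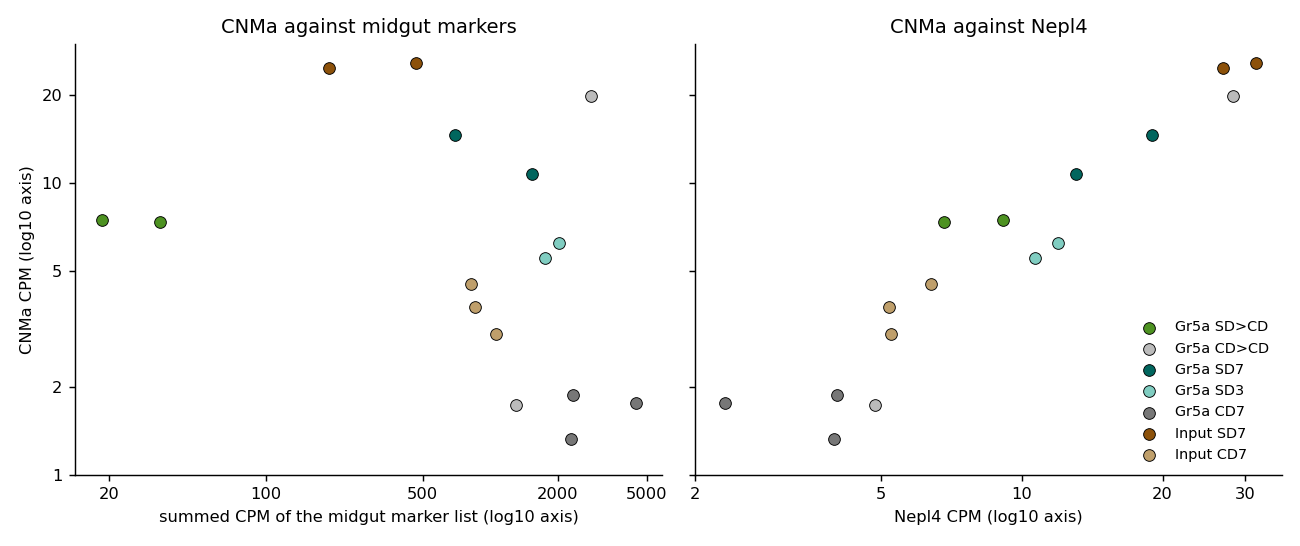
CNMa in CPM against the summed CPM of 32 midgut enterocyte markers (left) and against Nepl4 in CPM (right), both axes log10, with 1 point for each of the 16 libraries coloured by group. Both SD>CD libraries sit at midgut sums of 18.6 and 33.8 CPM with CNMa above 7 CPM. CNMa and Nepl4, which was picked for its correlation with CNMa over these libraries, run together (Pearson r 0.95 on log2 CPM).

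The genes whose log2 CPM was most like that of CNMa over all 16 libraries, among 8861 genes with a mean of at least 5 CPM, were Nepl4 (Pearson r 0.95), phu (0.93), CG5773 (0.89), sug (0.86) and CG12116 (0.85). Nepl4 encodes a neprilysin-like protein, phu an alkaline phosphatase, and sug, or sugarbabe, a zinc-finger transcription factor known for its response to dietary sugar. In the 11 Gr5a libraries alone r was 0.93 for Nepl4, 0.92 for phu and 0.83 for sug. The points share library, depth and the diet groups, so these values are a description. Nepl4 was at 26.9 and 31.7 CPM in input SD7, against 5.19 to 6.38 CPM in input CD7. In the pull-down it was at 13.1 and 19.0 CPM on SD7 and at 12.0 and 10.7 CPM on SD3, against 2.32 to 4.01 CPM on CD7. It was split in CD>CD as CNMa was, with 4.86 CPM in replicate 1 and 28.3 CPM in replicate 2, and sug was at 37.0 and 75.8 CPM in the same libraries. All these libraries were among the 16 used to pick both genes, so a shared split or a shared rise on SD7 is partly built in.

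CNMaR ranged only 1.78-fold over the 16 libraries, between 12.6 and 22.4 CPM. In the input it stood at 17.4 and 16.2 CPM on SD7 (663 and 830 counts), against 14.0, 12.6 and 14.3 CPM on CD7 (553, 543 and 804 counts). The groups did not overlap, as for 24.3% of genes in that direction. The log2 fold change was 0.31 (SE 0.16, 95% interval -0.05 to 0.66), and it was not called (edgeR adjusted p 0.310). The 8 neuron markers, among them elav, nSyb and brp, all were higher with an unadjusted p under 0.05, as were 9.91% of all genes. Their log2 fold changes had a median of 0.44, against 0.02 over all genes, and none of them was called. The part of neuronal RNA in the CNMaR value was not tested.

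In the Gr5a fraction the receptor showed no detectable change on the sugar diet. It was at 12.6 and 16.8 CPM on SD7 and at 14.5 and 17.3 CPM on SD3, against 16.6, 14.5 and 14.1 CPM on CD7, and the groups overlapped. The log2 fold change was -0.02 for SD7 against CD7 (SE 0.15, 95% interval -0.36 to 0.32, edgeR adjusted p 0.991). For SD3 against CD7 the 95% interval was -0.34 to 0.34 (edgeR adjusted p 0.998), and for SD7 against SD3 it was -0.39 to 0.35 (edgeR adjusted p 0.950). The upper bound for SD7 against CD7 is a 1.25-fold higher level and the lower bound 0.78-fold. The diet effects of the Gr5a fraction and the input differed by -0.37 (95% interval -0.88 to 0.13), which was not called (edgeR adjusted p 0.535). Of all genes, edgeR called 0.00% in this interaction and 9.81% had an unadjusted p under 0.05, while the DESeq2 Wald test called 12 genes.

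No enrichment of the receptor by the pull-down was detectable. Gr5a SD7 against input SD7 gave a log2 fold change of -0.22 (95% interval -0.61 to 0.17, edgeR adjusted p 0.492), where 18.7% of genes were called. Gr5a CD7 libraries had 16.6, 14.5 and 14.1 CPM, against 14.0, 12.6 and 14.3 CPM in input CD7, which gave 0.15 on the log2 scale (95% interval -0.17 to 0.47, edgeR adjusted p 0.433), where 46.2% of genes were called. Both intervals included 0.

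The receptor was highest in the 14-day flies. SD>CD libraries had 21.9 and 18.9 CPM (513 and 438 counts) and CD>CD libraries had 22.4 and 20.1 CPM (451 and 596 counts), so the diets did not separate (log2 fold change -0.01, 95% interval -0.38 to 0.37, edgeR adjusted p 0.997, and -0.04 without CD>CD replicate 2). All 4 of these libraries were above the other 12, which reached 17.4 CPM at most, as was the case for 7.09% of genes. Against SD7, SD>CD was higher without overlap, as for 30.6% of genes. The difference was 0.45 on the log2 scale (SE 0.17) and was called (edgeR adjusted p 0.0725), as it was in the higher direction for 11.6% of genes. It was lost in a fit of SD>CD and SD7 alone (0.44, edgeR adjusted p 0.105) and with unstranded counts (0.32, edgeR adjusted p 0.290). It was also lost without SD7 replicate 1 (0.31, edgeR adjusted p 0.379) and without SD>CD replicate 1 or 2 (0.38 and 0.59). On the control diet alone, all CD>CD libraries were above all CD7 libraries, as for 18.2% of genes, by 0.43 (SE 0.15), which was not called (edgeR adjusted p 0.111), nor was the 0.47 without CD>CD replicate 2 (edgeR adjusted p 0.134).

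Other RNA rose in the same libraries. Of the 10 photoreceptor markers, 7 were called higher in SD>CD against SD7 (median 0.77 on the log2 scale) and 6 in CD>CD against CD7 (median 0.71), where 7.65% of all genes were called higher. The 8 neuron markers had medians of 0.31 and 0.37, with 2 called higher in each, against medians of -0.09 and -0.06 over all genes. Without CD>CD replicate 2, 9 photoreceptor and 4 neuron markers were called higher in CD>CD against CD7, as were 9.07% of all genes. Age, the time on diet and the lower depth of the 14-day libraries cannot be told apart, and the part of neuronal and eye RNA in the CNMaR values was not tested. The host gene fry stood at 427 to 618 CPM in these 4 libraries, against 270 to 439 CPM in the other 12.

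By group mean, CNMaR was ordered as CD>CD, SD>CD, input SD7, SD3, Gr5a CD7, Gr5a SD7 and input CD7. Neighbours overlapped at each step except between SD>CD and input SD7, where the lowest SD>CD library was at 18.9 CPM and the highest input SD7 library at 17.4 CPM. The genes most like CNMaR over the 16 libraries were CG11883, CG3726, Plekhm1, Rlip and Mtmr6 (Pearson r 0.92 to 0.93). Rlip encodes a Ral-binding protein and Mtmr6 a myotubularin-type phosphatase.

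The hormone and its receptor varied little together. Pearson r of their log2 CPM was 0.18 over 16 libraries and 0.13 over the 11 Gr5a libraries, as a description over libraries that share diet groups. Per kilobase of exon, the CNMa level divided by the CNMaR level was 2.04 and 2.27 in input SD7, against 0.31 to 0.45 in input CD7. Within the pull-down this ratio was 1.22 and 1.24 on SD7 and 0.61 and 0.45 on SD3, against 0.13 to 0.19 on CD7. CNMa exceeded CNMaR per length in all 4 SD7 libraries and in CD>CD replicate 2 (1.40), and fell short of it in all CD7, SD3 and SD>CD libraries and in CD>CD replicate 1 (0.11). In SD>CD the ratio was 0.49 and 0.55.

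Peptide processing genes, such as amon, the prohormone convertase, svr, a carboxypeptidase, and Pal2, which completes the amidation of peptides, were not called on sugar. Of the 9 with a row, none was called in SD7 against CD7 in the Gr5a fraction or the input, or in SD3 against CD7. These comparisons called 0.00%, 0.0705% and 0.0436% of all genes, so the lack of calls in a short list says little about it. The median log2 fold change of the 9 was -0.06 in Gr5a SD7 against CD7, beside 0.04 over all genes. In input SD7 against CD7 all 9 values were above 0, from 0.04 to 0.57 with a median of 0.19, beside 0.02 over all genes, and 1 had an unadjusted p under 0.05. In SD>CD against SD7, 4 were called higher and 1 lower, beside 11.6% of all genes higher and 25.1% lower, with amon at 0.72 (edgeR adjusted p 0.00449) and Pal2 at 0.67 (edgeR adjusted p 0.00689). In CD>CD against CD7, where 7.65% of all genes were called higher, 3 were higher, amon by 0.44 (edgeR adjusted p 0.0753) and Pal2 by 0.44 (edgeR adjusted p 0.0749) among them, but 1 without CD>CD replicate 2.

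The amino acid sensors known to act upstream of CNMa in the midgut are Gcn2 and TOR signalling. With all libraries kept, none of 11 such genes was called in those 3 comparisons, beside at most 0.0705% of all genes. Without CD>CD replicate 2, a gene of this list was called higher in SD3 against CD7. The median log2 fold change in Gr5a SD7 against CD7 was 0.06. Thor, a translation repressor inhibited by TOR, had the largest value in input SD7 against CD7, 0.84 (edgeR adjusted p 0.128). In the Gr5a fraction Thor stood at 214 and 217 CPM on SD3, against 90.4 to 130 CPM on CD7. Several differed between fractions on the control diet, with 7 of 11 called higher in Gr5a CD7 than in input CD7, as were 24.3% of all genes. Among them Gcn2, the kinase that senses uncharged tRNA, was higher by 0.74 (edgeR adjusted p 0.000378) and Sesn, a sestrin, by 0.48 (edgeR adjusted p 0.00283). On SD7, 2 of the 11 were called higher in the pull-down, as were 10.8% of all genes. These were Gcn2 by 0.61 (edgeR adjusted p 0.00702) and Sesn by 0.40 (edgeR adjusted p 0.0352).

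Of 12 other peptide hormones of the gut, none was called in SD7 against CD7 in either fraction or in SD3 against CD7. That was with all libraries kept, beside at most 0.0705% of all genes. Without CD>CD replicate 2, a hormone of this list was called lower in SD3 against CD7. The median log2 fold change of the 12 was -0.08 in Gr5a SD7 against CD7. CCHa2, a nutrient-dependent hormone, had -0.67 there (edgeR adjusted p 0.887) and -0.88 in input SD7 against CD7 (edgeR adjusted p 0.166). In the Gr5a fraction CCHa2 was at 26.6 and 27.0 CPM on SD3, against 53.1 to 72.3 CPM on CD7. In Gr5a CD7 against input CD7, 10 of the 12 were called lower, as were 22.0% of all genes, with a median of -0.86. Orcokinin (-1.46, edgeR adjusted p 0.00169), AstC (-1.21, edgeR adjusted p 0.000462) and AstA (-1.13, edgeR adjusted p 0.000779) had values near the -1.19 of CNMa. On SD7, 8 of the 12 were lower in the pull-down, as were 7.95% of all genes.

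Among 39 other peptide hormone receptors none was called on sugar in those 3 comparisons, beside at most 0.0705% of all genes. In SD>CD against SD7, 14 were called higher and 0 lower, beside 11.6% of all genes higher and 25.1% lower. Their log2 fold changes had a median of 0.50, against -0.09 over all genes, and CNMaR had 0.45. Lgr3, a relaxin-family receptor, was higher by 1.34 (edgeR adjusted p 0.00596) and sNPF-R by 0.75 (edgeR adjusted p 0.00463). In CD>CD against CD7, 14 were called higher, beside 7.65% of all genes (12, beside 9.07%, without CD>CD replicate 2). CrzR, the corazonin receptor, was called lower there, as were 6.46% of all genes, by a log2 fold change of -0.78 (edgeR adjusted p 0.0196). The median of the list was 0.47. The value of CNMaR was close to these medians in both comparisons.

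Clock genes were looked at because CNMa is known from clock neurons. None of 9 was called on sugar in those 3 comparisons, beside at most 0.0705% of all genes. In SD>CD against SD7, 4 were called higher and 1 lower, beside 11.6% of all genes higher and 25.1% lower, with per at 0.90 (edgeR adjusted p 0.00195) and tim at 0.73 (edgeR adjusted p 0.00334). In CD>CD against CD7, 3 were called higher, beside 7.65% of all genes. Of these, per was higher by 0.92 (edgeR adjusted p 0.0164) and tim by 1.06 (edgeR adjusted p 0.0152). Photoreceptors also hold per and tim, and the hour of collection was not given.

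With CNMa set aside, since it was chosen on this comparison, 9 genes were called in input SD7 against CD7. In the Gr5a fraction, from the same lysates, all 9 had an unadjusted p under 0.05 in SD7 against CD7 in the direction of the input, beside 5.61% of all genes in either direction, and none was called. The 9 were picked by their input difference in these lysates, so this likeness is partly built in and is a description. Nepl4 had 2.23 (edgeR adjusted p 0.786), daw, an activin-type ligand, 0.65 (edgeR adjusted p 0.786), and Lsp2 -6.45 (edgeR adjusted p 0.786).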

How the data were processed

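The authors aligned reads to dm6 with STAR and deposited raw gene counts. The study's methods name HTSeq for counting, but the deposited count tables have the layout of STAR. Same-strand counts were used. The table of 1 Gr5a CD7 library has 1 column, taken as same-strand. Rows naming no gene, present in 13 of the other tables, held 32.1% to 58.4% of reads and were left out. Members and gene lists were chosen with earlier results of these data known. Chi-square per degree of freedom between replicates was 10.7 or more, so all were kept as separate libraries. Nothing beyond the labels says that replicates came from separate cohorts, so p-values measure the spread between these libraries.

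Tests of the counts used edgeR 4.0.16 (R 4.3.3, quasi-likelihood F test, filterByExpr, TMM, prior count 0.125, Benjamini-Hochberg adjustment over all genes), after a test on simulated data. An adjusted p under 0.1 was a call. The 11 Gr5a libraries formed 1 fit (13758 genes) and the 10 libraries of day 7 another (14185 genes). SE is the log2 fold change over the square root of F. Genes named were both members, list genes that were called or that check a group, and the 5 genes most correlated with each member. Replicate numbers paired Gr5a CD7 with input CD7, where deviations of same-numbered libraries from their group means correlated at 0.442 to 0.589. Alternatives were DESeq2 1.42.0 size factors and Wald test, other count filters, unstranded counts, a prior count of 2, smaller fits, other controls, the replicate block and leaving out each library, and another 2 were added after the data were seen.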

Additional observations from a re-analysis of the deposited data

How the results depend on the processing

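Leaving out each library in turn gave CNMa 2.78 to 3.14 for Gr5a SD7 against CD7, 1.63 to 1.93 for SD3 against CD7, 1.00 to 1.33 for SD7 against SD3, -0.95 to -0.63 for SD>CD against SD7, -1.43 to 2.19 for SD>CD against CD>CD, -0.029 to 3.56 for CD>CD against CD7 and -0.062 to 0.35 for the interaction. CNMaR ranged from -0.18 to 0.14, -0.045 to 0.089, -0.19 to 0.10, 0.31 to 0.61 and -0.12 to 0.092 in the first 5 of these, so its sign near 0 was not stable except in SD>CD against SD7. The DESeq2 Wald test gave 2.95 for CNMa in Gr5a SD7 against CD7 and 0.42 for CNMaR in CD>CD against CD7, both called (adjusted p 0.00418 and 0.0690). Fits of the groups alone gave CNMa 2.94 (not called) for Gr5a SD7 against CD7 and 1.82 (called) for SD3 against CD7. They gave CNMa -0.81 (called) for SD>CD against SD7 and 2.71 (not called) for CD>CD against CD7, and CNMaR 0.44 (not called) for SD>CD against SD7. Without CD>CD replicate 2 in the shared fit, a setting chosen after seeing the data, CNMa was called at 2.96, 1.77 (edgeR adjusted p 0.0365) and -0.80 in SD7 against CD7, SD3 against CD7 and SD>CD against SD7. With unstranded counts, which leave out 1 library, CNMa in CD>CD against CD7 was 2.73 (not called), and CNMaR was 0.10, -0.091 and 0.19 in SD7 against CD7, SD3 against CD7 and SD7 against SD3, and 0.32 (not called) in SD>CD against SD7. At least 10 counts in every library gave CNMaR -0.0037 in SD3 against CD7, 0.38 (not called) in SD>CD against SD7 and 0.40 (called) in CD>CD against CD7, and no filter gave 0.41 (not called) in SD>CD against SD7. Other controls gave -0.93 and -0.43 (CNMa and CNMaR, SD3 against CD>CD) and 2.16 and 0.42 (SD>CD against CD7, both called, as were 5982 of 13758 genes). The replicate block gave CNMa 2.44 in CD>CD against CD7, where numbers are not shown to pair (r = -0.173). With the block that call was lost (edgeR adjusted p 0.376). The block was not run for the SD>CD comparisons, so the CNMaR call in SD>CD against SD7 was not checked with it. For Gr5a SD7 against input SD7 same-numbered libraries correlated at -0.411, and 2655 genes called became 315 with the replicate block and 2506 with the numbers crossed. Causes of these shifts were not tested.

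Numbers of genes called moved more, over all alternatives and left-out libraries: 1 to 1391 for input SD7 against CD7 (10 as reported), 0 to 57 for Gr5a SD7 against CD7 (0), 0 to 3176 for SD3 against CD7 (6), 0 to 776 for SD7 against SD3 (0), 144 to 5982 for SD>CD against CD>CD (1828), 2320 to 5573 for SD>CD against SD7 (5045), 0 to 3388 for CD>CD against CD7 (1942), 315 to 3120 for Gr5a SD7 against input SD7 (2655) and 0 to 12 for the interaction (0). With 2 or 3 libraries a group, differences of CNMaR inside the intervals given were not detectable.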
